A study of Arabidopsis thaliana with 6 samples.

Results

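WRKY transcription factors were followed in whole seedlings of Arabidopsis thaliana that spent 1 h under water. Members were all genes of the deposited expression table whose name is WRKY followed by a number alone, which gave 70 of 27655 listed genes. RRS1B (AT5G45050, also known as WRKY16) and RRS1 (AT5G45260, also known as WRKY52) carry a WRKY domain under other names and were not counted as members; their log2 fold changes were -0.02 ± 0.08 and 0.11 ± 0.08 (adjusted p = 0.831 and 0.252). Col-0 wild-type seedlings aged 14 days, raised on MS agar in long days, were either submerged in distilled water for 1 h (3 libraries) or left in air for the same 1 h (3 libraries, the control), and total RNA was sequenced. The design text calls the libraries of each group biological replicates and says no more of how they were raised. The p-values measure the spread between these libraries, which may in part be technical.

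WRKY proteins form one of the large plant families of transcription factors and are named after the amino acids at the start of their DNA-binding domain, which is folded around a zinc ion. They bind W-boxes, short promoter motifs with the core TTGAC, which also stand in front of many WRKY genes, so that members regulate each other and themselves. Group I proteins carry a pair of WRKY domains, group II proteins carry a single domain and are divided into IIa to IIe by sequence, and group III proteins have a different zinc finger. Many members act in immunity, downstream of MAP kinases and calcium-dependent kinases, and others act in senescence, nutrient uptake, and heat, drought or flooding responses.

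Library totals ran from 20041244 to 29673924 counts under water and from 20287275 to 25900177 counts in air. Levels are given as CPM (read counts divided by TMM-scaled library size), in the order of replicates 1, 2 and 3 of each group. A fold change is the log2 ratio of submerged to air with its SE, and a gene was called at an adjusted p under 0.05 in edgeR's quasi-likelihood test over all 19495 genes tested (n = 3 libraries per group). The mean log2 CPM of 15 root-preferred marker genes was 2.51, 2.50 and 2.21 under water and 2.30, 2.70 and 1.59 in air, so air replicate 2 stood highest and air replicate 3 lowest in root markers; the mean of 8 shoot-preferred markers was 11.1, 11.1 and 11.3 under water and 11.7, 11.6 and 11.7 in air. Of the root markers 3 were called higher and 2 lower, of the shoot markers 0 higher and 5 lower, and none was at 0 in all libraries. With the root marker level as a covariate 26 WRKY genes were called higher and 1 lower, and the part of shoot content in the results was not tested. In RNA from whole seedlings a change in the number of cells of a type and a change in RNA per cell cannot be told apart.

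Transcripts of the family as a whole were higher under water. Summed over the 70 members, CPM were 1350.4, 1471 and 1553 under water, against 511, 516 and 512 in air. The means were 1458 ± 102 CPM and 513 ± 2.98 CPM (SD, n = 3 each), a ratio of 2.84, and the groups did not overlap. The family took 0.135%, 0.146% and 0.1502% of all counts under water, against 0.0514%, 0.0534% and 0.0513% in air. Of the 70 members, 50 had enough counts to be tested. Among these, 24 were called higher and 2 lower, while 24 did not pass the test. Of all genes tested, 28.8% were called higher and 26.1% lower, so that the members' 48% called higher exceeded that background and their 4% called lower fell below it. Called rises of at least 2-fold were seen in 17 members (34% of those tested, against 9.69% of all genes tested). No tested member fell as far, while 5.59% of all genes tested were called with such a fall. The CPM of the groups did not overlap for 34 of the 50, which is 68%, near the 62.1% of all genes tested. The median log2 fold change was 0.71 for the members and 0.01 for all genes tested.

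Upper quartile scaling moved the median of all genes by -0.12, and under it 22 members were called higher and 5 lower. The 17 genes with at least a 2-fold rise added up to 969, 1093 and 1168 CPM under water and 179, 173 and 181 CPM in air. They were picked by their rise in these same libraries, so a higher sum for them and a smaller ratio for the rest follow from the choice. The other 53 members together stood at 382, 378 and 386 CPM under water and 332, 343 and 331 CPM in air, a ratio of 1.14. WRKY33 alone made up 12.7%, 15.3% and 14.8% of the family's counts under water and 3.12%, 3.07% and 3.696% in air. Ranked by log2 fold change among the 19495 genes tested, WRKY46 stood at 47, WRKY40 at 65 and WRKY18 at 71.

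**Figure D1:**
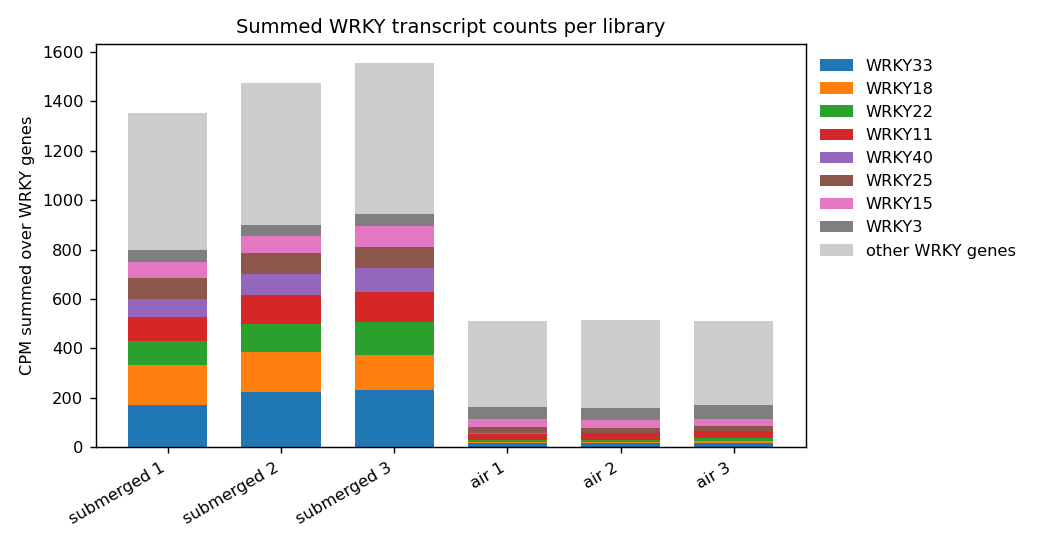
Stacked bars give the CPM summed over all WRKY genes in each library (vertical axis, CPM), submerged libraries on the left and air libraries on the right, with 8 members coloured singly and the rest in grey. The submerged bars reach 1350.4 to 1553 CPM and the air bars 511 to 516 CPM, with WRKY33, WRKY18 and WRKY22 thick under water and thin in air.

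**Figure D2:**
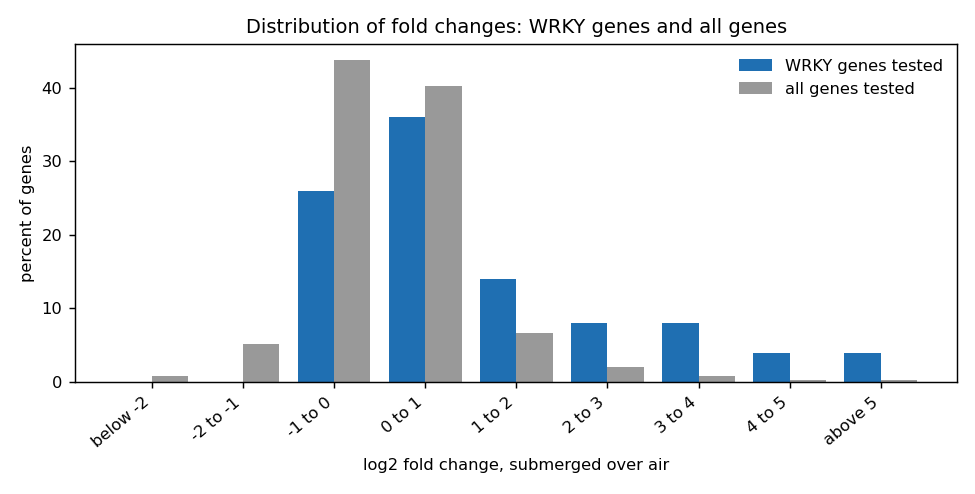
Bars give the percent of genes (vertical axis) in bins of log2 fold change, submerged over air, for the 50 tested WRKY genes in blue and all 19495 tested genes in grey. Bins above 2 hold 12 WRKY genes and the bins below -1 hold none.

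Since WRKY proteins bind W-boxes, the promoters of 5 members with strong rises are shown, with that of WRKY60, the relative of WRKY18 and WRKY40 that did not pass the test. Each is the 250 bases before the annotated 5′ end of the gene in the RefSeq TAIR10.1 assembly, read 5′ to 3′ on the gene's strand. Capitals mark the W-box core TTGAC, or GTCAA where it lies on the opposite strand.
WRKY46 (chr2:19044956-19045205, minus strand): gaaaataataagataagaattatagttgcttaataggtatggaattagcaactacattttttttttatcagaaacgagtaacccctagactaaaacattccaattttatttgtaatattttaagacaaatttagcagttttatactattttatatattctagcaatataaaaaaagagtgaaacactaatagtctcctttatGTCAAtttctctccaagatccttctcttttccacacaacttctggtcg
WRKY53 (chr4:12393983-12394232, minus strand): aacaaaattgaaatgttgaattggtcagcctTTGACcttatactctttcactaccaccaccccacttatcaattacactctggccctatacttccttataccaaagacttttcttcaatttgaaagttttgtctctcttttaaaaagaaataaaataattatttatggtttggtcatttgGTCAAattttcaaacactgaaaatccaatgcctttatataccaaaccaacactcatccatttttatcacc
WRKY33 (chr2:16107985-16108234, plus strand): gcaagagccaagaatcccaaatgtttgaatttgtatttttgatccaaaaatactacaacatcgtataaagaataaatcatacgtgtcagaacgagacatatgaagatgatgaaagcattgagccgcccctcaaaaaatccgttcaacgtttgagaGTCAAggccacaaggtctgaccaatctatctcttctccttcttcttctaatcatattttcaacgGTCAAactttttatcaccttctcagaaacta
WRKY40 (chr1:30383311-30383560, plus strand): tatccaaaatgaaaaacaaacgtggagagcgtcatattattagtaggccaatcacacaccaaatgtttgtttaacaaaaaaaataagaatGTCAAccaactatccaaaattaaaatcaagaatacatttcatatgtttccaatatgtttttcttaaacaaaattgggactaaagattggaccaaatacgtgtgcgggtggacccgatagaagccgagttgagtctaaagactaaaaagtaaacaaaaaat
WRKY18 (chr4:15382527-15382776, plus strand): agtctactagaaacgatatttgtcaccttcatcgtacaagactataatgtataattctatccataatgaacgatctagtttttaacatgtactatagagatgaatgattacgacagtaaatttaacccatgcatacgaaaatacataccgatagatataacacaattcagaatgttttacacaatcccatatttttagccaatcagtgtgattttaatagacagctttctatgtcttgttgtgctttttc
WRKY60 (chr2:10629412-10629661, plus strand): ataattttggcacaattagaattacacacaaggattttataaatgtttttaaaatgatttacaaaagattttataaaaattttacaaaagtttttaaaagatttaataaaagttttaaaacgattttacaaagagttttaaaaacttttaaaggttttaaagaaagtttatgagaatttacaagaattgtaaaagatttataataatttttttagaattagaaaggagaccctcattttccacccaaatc

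The windows of WRKY53 and WRKY33 each held 2 cores, beginning 219 and 70 bases before the start in WRKY53 and 95 and 31 bases before it in WRKY33. WRKY46 and WRKY40 held 1 each, at 48 and 160 bases. WRKY29 and WRKY32 held 4 each, the most in the family. No core lay in the window of WRKY18, WRKY48 or WRKY22, which rose strongly, nor in that of WRKY60; further transcripts of WRKY18 start inside the gene, and their upstream sequence was not searched. Over the family, 36 of 70 windows (51.4%) held at least 1 core on either strand, against 44.9% of 27443 windows of the genes listed. Among the 17 members with at least a 2-fold rise 12 windows (70.6%) held it, against 53% of the 1876 windows of all genes that were called and rose at least 2-fold. The windows of WRKY25 and WRKY26, which are among these 12, overlap another annotated protein-coding gene, as do those of WRKY19, WRKY45 and WRKY68. Such windows were kept in all sets. Among all 24 members called higher 14 windows (58.3%) held it, against 48.8% of all genes called higher, and among the 2 called lower 0. Among the 24 members that were tested and not called 10 windows (41.7%) held it, and among the 20 not tested 12 (60%). With the longer forms TTGACC or TTGACT the share was 34.3% in the family and 28.4% in all genes. These matches describe the letters of the windows and say nothing of binding.

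The genes of group IIa showed how unevenly the response was spread within a small set of close relatives. WRKY18, WRKY40 and WRKY60 encode proteins that bind each other and act together in defence and in abscisic acid responses. WRKY18 (AT4G31800) had 162, 162 and 143 CPM under water, against 4.95, 4.19 and 6.196 CPM in air (log2 fold change 4.93 ± 0.11, adjusted p = 9.34e-12). WRKY40 (AT1G80840) had 72.4, 85.98 and 94.8 CPM under water, against 3.07, 2.399 and 2.16 CPM in air (log2 fold change 5.03 ± 0.14, adjusted p = 2.86e-11). For both genes the lowest submerged library lay 23.1-fold or more above the highest air library. WRKY60 (AT2G25000), by contrast, had 3.005, 2.36 and 3.56 CPM under water, against 3.22, 3.29 and 3.59 CPM in air, with overlapping groups (log2 fold change -0.18 ± 0.23, adjusted p = 0.533). Within each library the count of WRKY18 divided by that of WRKY60, which needs no scaling between libraries, was 53.9, 68.4 and 40.2 under water, against 1.54, 1.27 and 1.73 in air. The same ratio of WRKY40 to WRKY60 was 24.1, 36.4 and 26.6 under water, against 0.952, 0.729 and 0.603 in air.

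Group III held the largest single rise. WRKY46 (AT2G46400), which acts with WRKY70 and WRKY53 in resistance to Pseudomonas and also in osmotic stress responses, had 10.2, 8.53 and 10.8 CPM under water, against 0.154, 0.376 and 0.148 CPM in air (log2 fold change 5.44 ± 0.30, adjusted p = 7.14e-09). It was nearly undetected in air, with 4, 8 and 3 counts, and its log2 fold change ran from 5.19 to 5.98 when single libraries were left out. WRKY70 (AT3G56400), a switch between salicylic acid and jasmonate responses, had 38.5, 44.8 and 47.02 CPM under water, against 1.07, 2.77 and 2.46 CPM in air (log2 fold change 4.404 ± 0.20, adjusted p = 1.41e-09). WRKY53 (AT4G23810), a regulator of leaf senescence, had 10.7, 11.98 and 14.7 CPM under water, against 1.07, 1.22 and 0.688 CPM in air (log2 fold change 3.62 ± 0.22, adjusted p = 2.06e-08). In all 3 genes every submerged library was above every air library by a wide margin. WRKY54 (AT2G40750), the closest relative of WRKY70 and like it a brake on senescence, was scarce in both groups, with 2.19, 1.45 and 1.65 CPM under water, against 0.307, 0.376 and 0.492 CPM in air (log2 fold change 2.18 ± 0.40, adjusted p = 4.75e-04). The count ratio of WRKY70 to WRKY54 within a library was 17.6, 30.8 and 28.5 under water, against 3.5, 7.38 and 5 in air. These were the 4 testable genes of the 13 in group III, and the count filter let a gene pass through the group where it was high, so their agreement in direction is a description of the genes that could be measured.

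The other 9 group III genes were at or near 0. WRKY30 (AT5G24110), known from stress responses of young seedlings, had 6, 2 and 2 counts under water and 0 in air. Against a floor of 6 counts summed over the air libraries these counts were 1.55-fold higher, which leaves out the error of the submerged counts. The authors' deposited table does not call WRKY30 (false discovery rate 0.130). WRKY38, a repressor of basal defence, had 8 counts under water and 4 in air, WRKY55 had 4 and 4, and WRKY62 and WRKY63 had 2 and 1 counts under water and 0 in air. WRKY41, WRKY64, WRKY66 and WRKY67 had 0 counts in all 6 libraries.

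In group I, WRKY33 was the most abundant riser. WRKY33 (AT2G38470), a substrate of MPK3 and MPK6 that drives camalexin synthesis and resistance to necrotrophic fungi, and has been linked to submergence tolerance through RAP2.2, had 172, 225 and 230.1 CPM under water, against 15.9, 15.8 and 18.9 CPM in air (log2 fold change 3.63 ± 0.12, adjusted p = 7.56e-11). Its relatives WRKY25 and WRKY26, which act with it in heat tolerance, rose less. WRKY25 (AT2G30250) had 83.7, 85.3 and 83.4 CPM under water, against 23.03, 19.1 and 19.9 CPM in air (log2 fold change 2.02 ± 0.07, adjusted p = 2.06e-10), and WRKY26 (AT5G07100) had 30.1, 33.5 and 37.4 CPM under water, against 17.5, 14.2 and 15.5 CPM in air (log2 fold change 1.09 ± 0.10, adjusted p = 1.38e-06). None of these groups overlapped. The ratio of WRKY25 to WRKY26 counts within a library was 2.78, 2.54 and 2.23 under water, against 1.32, 1.34 and 1.28 in air.

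The remaining group I genes moved little, in either direction. WRKY1 (AT2G04880) was the largest fall in the family that passed the test, with 21.7, 22.1 and 21.6 CPM under water, against 30.7, 28.3 and 25.5 CPM in air (log2 fold change -0.37 ± 0.08, adjusted p = 0.00221). WRKY3 (AT2G03340), which acts with WRKY4 against necrotrophic pathogens, had 46.5, 42.6 and 48.004 CPM under water, against 50.9, 50.3 and 54.2 CPM in air (log2 fold change -0.18 ± 0.07, adjusted p = 0.0332), while WRKY4 (AT1G13960) had 25.1, 28.4 and 27.9 CPM under water, against 22.1, 24.1 and 21.5 CPM in air (log2 fold change 0.26 ± 0.08, adjusted p = 0.0168). The ratio of WRKY3 to WRKY4 counts was 1.85, 1.502 and 1.72 under water, against 2.31, 2.09 and 2.52 in air, lower in every submerged library than in every air library. The calls of WRKY3 and WRKY4 were lost by DESeq2 (adjusted p = 0.0571 and 0.0543). WRKY3 was also lost with the root marker covariate (adjusted p = 0.0701) and WRKY4 with upper quartile scaling (adjusted p = 0.175). Leaving out submerged replicate 2, air replicate 1 or air replicate 3 also ended both calls, and leaving out submerged replicate 1 ended that of WRKY3, with adjusted p from 0.0565 to 0.144. WRKY44 (AT2G37260), needed for trichome and seed coat development, had 1.49, 1.45 and 1.75 CPM under water, against 2.23, 1.98 and 1.67 CPM in air (log2 fold change -0.33 ± 0.29, adjusted p = 0.352). WRKY2, WRKY19, WRKY20 and WRKY32 did not pass the test, at -0.23 ± 0.14, 0.12 ± 0.07, -0.07 ± 0.07 and -0.25 ± 0.12. With upper quartile scaling WRKY2, WRKY20 and WRKY32 were called lower (-0.35, -0.19 and -0.38), and WRKY32 was also called without submerged replicate 2 (-0.35, adjusted p = 0.0415). Of the 14 group I genes 11 were tested, and 4 were called higher (36.4%) and 2 lower (18.2%), near the 28.8% and 26.1% of all genes tested. WRKY58 had 12 counts in each group, WRKY34 had 1 count in air, and WRKY10, a seed gene, had 0 counts.

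Group IIe includes a gene tied to flooding in earlier work. WRKY22 (AT4G01250), a target of flagellin signalling that has been reported to link submergence with immunity, had 97.1, 112 and 132 CPM under water, against 10.4, 9.17 and 13.8 CPM in air (log2 fold change 3.35 ± 0.14, adjusted p = 5.53e-10). WRKY29 (AT4G23550), which acts with WRKY22 in flagellin signalling, had 11.5, 13.1 and 9.76 CPM under water, against 5.99, 4.56 and 4.03 CPM in air (log2 fold change 1.23 ± 0.17, adjusted p = 5.38e-05). WRKY27 (AT5G52830), known from bacterial wilt disease, had 5.06, 6.8998 and 6.81 CPM under water, against 3.38, 3.998 and 3.34 CPM in air (log2 fold change 0.80 ± 0.19, adjusted p = 0.00339). All 3 rose with groups that did not overlap, and the count ratio of WRKY22 to WRKY27 was 19.2, 16.2 and 19.3 under water, against 3.08, 2.29 and 4.12 in air. WRKY65 rose with overlapping groups, at 25.2, 19.97 and 15.02 CPM under water, against 13.1, 15.3 and 9.196 CPM in air (log2 fold change 0.69 ± 0.19, adjusted p = 0.0084, and 0.0559 without submerged replicate 1). Air replicate 3 and submerged replicate 3, each the lowest of its group in root markers, were also the lowest of their groups for WRKY65. The gene was called in the fit with the root marker covariate. The part of root content in its change was not tested. Of the 7 group IIe genes 4 were called higher (57.1%, against 28.8% of all genes tested) and 3, WRKY14, WRKY35 and WRKY69, did not pass, at 0.30 to 0.44.

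In group IId, whose proteins bind calmodulin, 5 of 7 genes were called higher (71.4%, against 28.8% of all genes tested) and the rises were moderate. WRKY11 (AT4G31550), a repressor of basal resistance to Pseudomonas syringae, had 97.9, 118 and 125 CPM under water, against 23.4, 27.7 and 26.1 CPM in air (log2 fold change 2.14 ± 0.10, adjusted p = 1.09e-09). WRKY17 (AT2G24570), which shares that role, had 16.9, 18.2 and 21.3 CPM under water, against 10.7, 12.9 and 11.1 CPM in air (log2 fold change 0.70 ± 0.12, adjusted p = 2.38e-04). The ratio of WRKY11 to WRKY17 counts was 5.78, 6.499 and 5.87 under water, against 2.17, 2.14 and 2.36 in air. WRKY15 (AT2G23320), known from salt and oxidative stress, had 64.7, 68.5 and 86.9 CPM under water, against 32.98, 31.7 and 29.5 CPM in air (log2 fold change 1.22 ± 0.10, adjusted p = 3.55e-07), and WRKY7 and WRKY21 rose by 1.04 ± 0.11 and 0.84 ± 0.08. Submerged replicate 3 was the highest library for both WRKY15 and WRKY7. WRKY39 was nearly level, at 30.5, 28.6 and 31.95 CPM under water, against 28.3, 31.2 and 31.8 CPM in air (log2 fold change -0.00 ± 0.08, adjusted p = 0.982), and WRKY74, with 6 to 18 counts per library, stood at 0.91 ± 0.51 (adjusted p = 0.151). The ratio of WRKY21 to WRKY39 counts was 1.79, 1.86 and 1.87 under water, against 1.13, 0.905 and 1.05 in air.

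Group IIc split into 2 strong risers and a larger number of genes with few or no counts. WRKY48 (AT5G49520), a stress-induced activator that weakens basal resistance, had 25.8, 28.7 and 30.1 CPM under water, against 2.23, 1.32 and 2.85 CPM in air (log2 fold change 3.72 ± 0.18, adjusted p = 2.35e-09). WRKY28 (AT4G18170), an activator of the salicylic acid synthesis gene ICS1, had 18.6, 21.5 and 20.1 CPM under water, against 4.22, 4.28 and 4.43 CPM in air (log2 fold change 2.22 ± 0.12, adjusted p = 4.98e-09). The replicates of WRKY28 were tight in both groups. No other group IIc gene was called, out of 10 tested and 18 listed. With so few genes, the 20% called higher is near the 28.8% of all genes tested, and 0% were called lower, against 26.1%. The same 20% were at least 2-fold higher, against 9.69% of all genes tested. WRKY75 (AT5G13080), induced by phosphate starvation, had 1.15, 1.09 and 1.86 CPM under water, against 0.461, 1.03 and 0.492 CPM in air (log2 fold change 1.04 ± 0.44, adjusted p = 0.0634), and was called without air replicate 2 (1.498, adjusted p = 0.0242). WRKY45 (AT3G01970), which promotes phosphate uptake, had 5.57, 3.86 and 5.37 CPM under water, against 3.84, 4.28 and 2.11 CPM in air (log2 fold change 0.53 ± 0.26, adjusted p = 0.105). WRKY57 (AT1G69310), linked to drought tolerance, had 8.17, 8.35 and 8.36 CPM under water, against 5.14, 6.35 and 8.06 CPM in air (log2 fold change 0.35 ± 0.17, adjusted p = 0.0943). It was called with the root marker covariate (0.44, adjusted p = 0.0431) and without air replicate 3 (0.53, adjusted p = 0.0190).

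A few group IIc genes depended on single libraries. WRKY49 had 0.203, 0.409 and 1.70 CPM under water, against 1.42, 1.36 and 1.28 CPM in air. Submerged replicate 3 alone reached the air level. The log2 fold change of WRKY49 was -0.89 ± 0.60 (adjusted p = 0.227) and -2.17 without submerged replicate 3 (adjusted p = 0.00371). WRKY8, WRKY13, WRKY23 and WRKY50 did not pass the test, at 1.06 ± 0.62, 0.74 ± 0.63, -0.05 ± 0.23 and -0.52 ± 0.37. When single libraries were left out, WRKY8 ran from 0.43 to 1.401 and WRKY13 from -0.05 (without submerged replicate 2) to 1.15. WRKY12 (AT2G44745), a regulator of secondary wall formation and flowering that has been reported to interact with WRKY33 under submergence, was below the count filter, with 3, 4 and 0 counts under water, against 8, 8 and 16 in air. The authors' deposited table lists WRKY12 at a log2 fold change of -2.23 with a false discovery rate of 0.0231. WRKY59 had 2, 6 and 2 counts under water and 0 in air, again 1.55-fold higher against the floor of 6 counts. The deposited table does not call WRKY59 (false discovery rate 0.129). WRKY24 had 2 counts under water and 14 in air, WRKY51 had 10 and 8, WRKY56 had 6 and 10, WRKY43 and WRKY68 had 2 and 1 in air alone, and WRKY71 had 0 counts.

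Group IIb had 1 clear riser. WRKY6 (AT1G62300), which represses the phosphate exporter gene PHO1 and acts in senescence, had 27.2, 25.9 and 39.1 CPM under water, against 7.52, 10.3 and 7.82 CPM in air (log2 fold change 1.84 ± 0.16, adjusted p = 7.99e-07). Submerged replicate 3 was highest, and every submerged library was above every air library. WRKY47 rose by 0.50 ± 0.11 (adjusted p = 0.00203) and WRKY9 by 0.83 ± 0.32 (adjusted p = 0.0397). The call of WRKY9 was lost with upper quartile scaling (0.71, adjusted p = 0.0704), by DESeq2 (adjusted p = 0.0651), and without submerged replicate 1 (0.62), submerged replicate 3 (0.89), air replicate 2 (0.66) or air replicate 3 (0.85), with adjusted p from 0.0520 to 0.187. WRKY72, known to contribute to basal immunity, had 5.44, 4.27 and 4.03 CPM under water, against 2.76, 4.04 and 1.72 CPM in air (log2 fold change 0.69 ± 0.28, adjusted p = 0.052), and without air replicate 2 it was called at 1.02 (adjusted p = 0.00890). It was also called with no filter, by limma voom, with the root marker covariate, with halved counts and with the replicate number as a block (0.73, adjusted p = 0.0429). WRKY31, WRKY36, WRKY42 and WRKY61 did not pass the test, at -0.47 to 0.72.

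**Figure D3:**
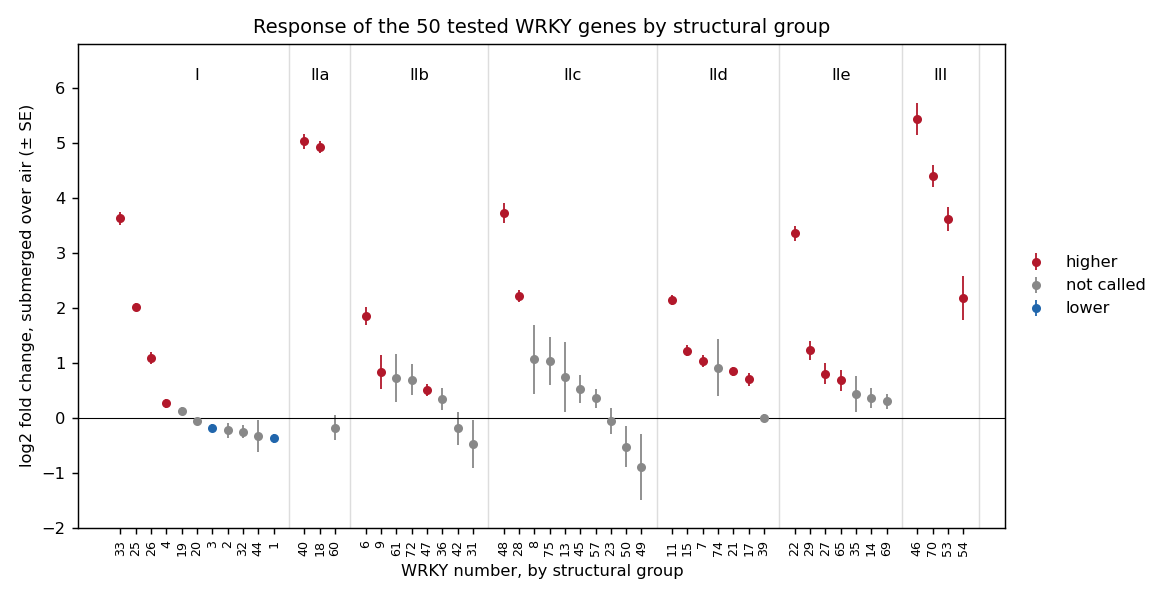
Points give the log2 fold change (submerged over air) and bars its SE for the 50 tested WRKY genes, ordered within structural groups I to III, with genes called higher in red, called lower in blue and not called in grey. Groups I, IIa and IIc hold strong risers beside genes near 0, group IIb has 1 gene past 1, and the 4 tested group III genes lie between 2.18 and 5.44.

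The median log2 fold change of the tested genes was -0.07 in group I (11 genes), 4.93 in IIa (3) and 0.60 in IIb (8). It was 0.63 in IIc (10), 0.91 in IId (7), 0.69 in IIe (7) and 4.01 in III (4 of 13). The IIa and III medians rest on few genes. In group III the count filter let genes pass through the group where they were high, so the medians do not rank the groups.

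Across all groups, submerged replicate 3 had the highest level of the submerged libraries in 12 of the 17 genes with at least a 2-fold rise, and submerged replicate 1 the lowest in 11 of them. The air libraries were mixed, each being the highest in 5 to 7 of the 17. The gap between the lowest submerged and the highest air library was smallest for WRKY29, at 1.63-fold, and largest for WRKY40, at 23.6-fold. None of the 17 changed by as much as 1.5-fold when a single library was left out. WRKY46 came nearest.

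**Figure D4:**
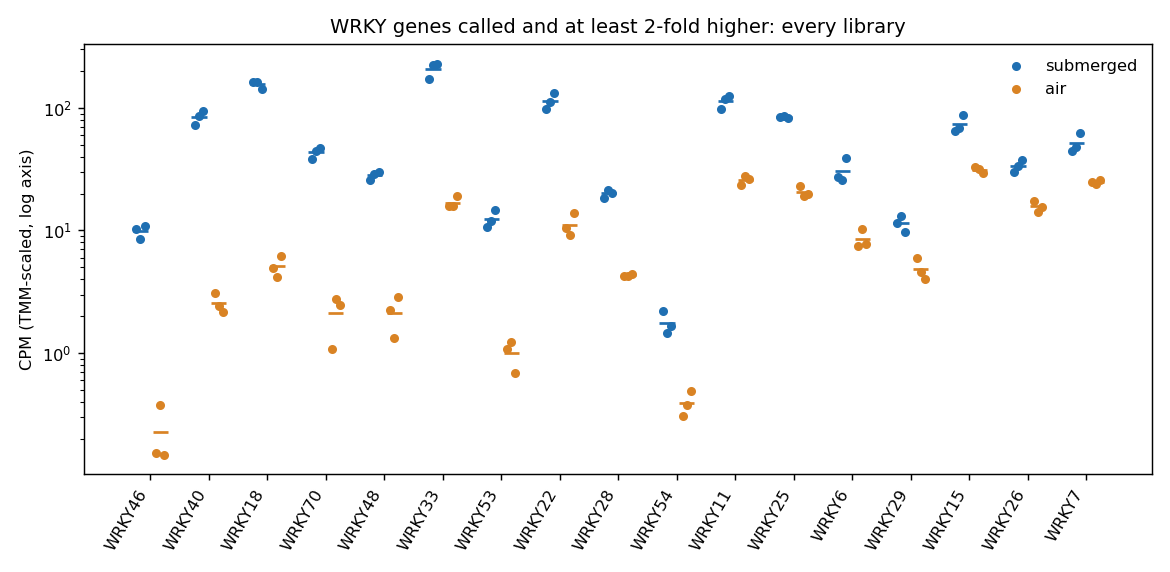
Points give the CPM of each library (vertical log axis) for the 17 WRKY genes called and at least 2-fold higher, submerged libraries in blue on the left of each pair and air libraries in orange on the right, with short lines at the group means. No pair of groups overlaps, which the choice of genes by their rise in these libraries made likely, and the gap is narrowest for WRKY29.

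The order of levels within the family changed. Levels between genes are compared per transcript length, in the TPM values that the authors deposited. In submerged seedlings the highest were WRKY33 with 169 ± 23.95 TPM, WRKY22 with 140.2 ± 18.7 TPM, WRKY18 with 126 ± 11.2 TPM and WRKY40 with 104 ± 12.1 TPM (mean ± SD, n = 3). In the air group these genes averaged 13.6 ± 1.27 TPM, 13.7 ± 2.74 TPM, 4.12 ± 0.756 TPM and 3.15 ± 0.568 TPM, which placed them at 12, 11, 26 and 31 of the 70. WRKY11 and WRKY15 came next under water, and the level of WRKY11 was within the replicate spread of that of WRKY40. In air the highest were WRKY15 with 40.1 ± 2.51 TPM and WRKY3 with 38.5 ± 1.16 TPM, which did not differ beyond their spread, followed by WRKY21 with 24.2 ± 1.597 TPM and WRKY11 with 23.2 ± 2.33 TPM. WRKY3 stood at 34.1 ± 1.76 TPM under water.

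The ratios of counts within libraries were taken for 9 pairs of genes that share a structural group, picked after their fold changes were seen. In 8 pairs the submerged and air ratios did not overlap, which the choice of pairs made likely. The exact two-sided permutation p was 0.1 for each, the smallest that 3 libraries against 3 can give. It was 0.113 after adjustment over the 9 pairs. Because the same libraries served for picking the pairs, these p-values are no evidence of a difference. The mean log2 ratio differed by 5.14 for WRKY18 over WRKY60 and by 5.26 for WRKY40 over WRKY60. For WRKY11 over WRKY17 it differed by 1.44, for WRKY21 over WRKY39 by 0.85 and for WRKY3 over WRKY4 by -0.45. The exception was WRKY65 over WRKY69, where the groups overlapped (2.899, 1.97 and 1.702 under water, against 1.78, 1.98 and 1.25 in air, exact permutation p = 0.5).

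**Figure D5:**
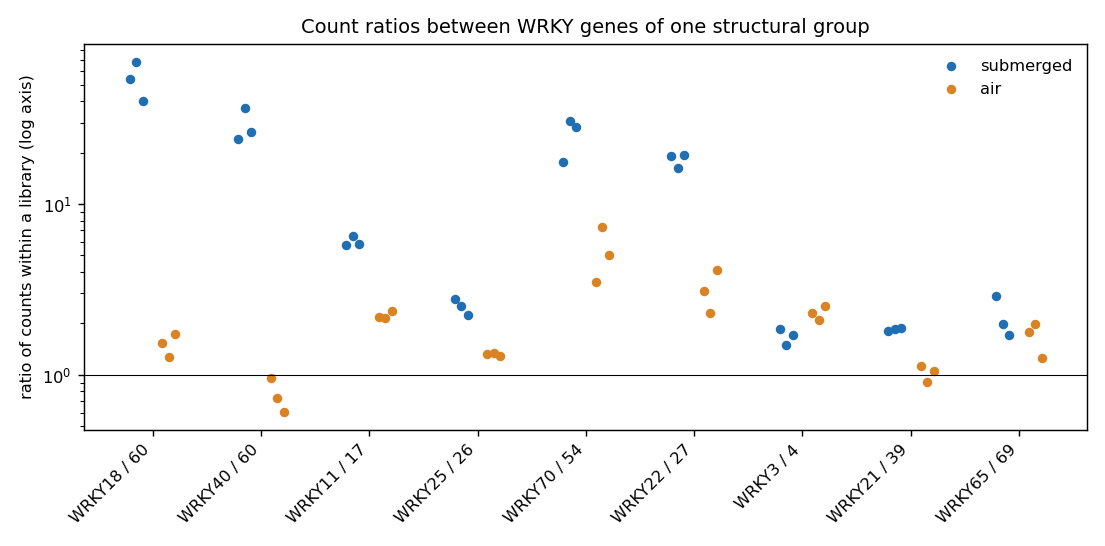
Points give the ratio of the counts of 2 WRKY genes of the same structural group in each library (vertical log axis), submerged libraries in blue on the left of each pair and air libraries in orange on the right. WRKY18 / 60 and WRKY40 / 60 show the widest separation, WRKY3 / 4 is lower under water, and WRKY65 / 69 overlaps. The pairs were picked after their fold changes were seen, which made separation likely.

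Most of the listed genes for kinases upstream of WRKY proteins had higher transcript levels under water. This list, like those of VQ-motif proteins and reported targets below, was chosen with earlier results of these data known. The shares set beside those of all genes are therefore descriptions of the listed genes. Kinase protein and activity were not measured. Of 13 genes for MAP kinase modules and calcium-dependent kinases, all tested, 12 were called higher and 0 lower, with a median log2 fold change of 1.15, against 28.8% called higher, 26.1% lower and a median of 0.01 over all genes tested. MKK9 (AT1G73500), a MAP kinase kinase of ethylene and camalexin responses, had 75.99, 93.6 and 75.9 CPM under water, against 6.64, 7.48 and 9.64 CPM in air (log2 fold change 3.38 ± 0.12, adjusted p = 2.25e-10). CPK6 (AT2G17290), a calcium-dependent kinase of immune signalling, rose by 2.36 ± 0.08. The WRKY33 kinases MPK3 and MPK6 rose by 1.05 ± 0.07 and 0.17 ± 0.06, and MPK4 did not pass the test (0.15 ± 0.07, adjusted p = 0.0895). The call of MPK6 (adjusted p = 0.0285) was lost with upper quartile scaling (0.05, adjusted p = 0.459), with library size alone, by DESeq2, and without submerged replicate 3, air replicate 2 or air replicate 3 (adjusted p from 0.0520 to 0.110). MPK4 was called higher with the root marker covariate and without submerged replicate 1 or air replicate 3 (0.19 to 0.202, adjusted p from 0.0349 to 0.0438).

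Genes for VQ-motif proteins, small partners that bind WRKY domains, rose in part. Of 21 listed 13 were tested, and 7 were called higher and 0 lower (53.8% and 0%, against 28.8% higher and 26.1% lower over all genes tested; median log2 fold change 0.62). SIB1 (AT3G56710), which binds WRKY33, had 4.08, 4.99 and 5.73 CPM under water, against 1.07, 1.69 and 0.688 CPM in air (log2 fold change 2.09 ± 0.31, adjusted p = 7.74e-05). VQ10 rose by 1.85 ± 0.45, and MKS1, which joins MPK4 to WRKY33, by 1.41 ± 0.13. SIB2, the close relative of SIB1, did not pass the test (0.27 ± 0.17, adjusted p = 0.198).

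Genes reported as targets of WRKY proteins were split between risers and genes that did not pass or were not measurable. Of 16 listed 13 were tested, and 9 were called higher and 0 lower (69.2% and 0%, against 28.8% higher and 26.1% lower over all genes tested; median log2 fold change 1.102). Of these, SIRK lost its call in 4 and ACS2 in 4 of the 6 fits that left out a single library. CBP60G (AT5G26920), an activator of salicylic acid synthesis, had 23.2, 23.7 and 28.03 CPM under water, against 2.303, 2.54 and 2.07 CPM in air (log2 fold change 3.43 ± 0.14, adjusted p = 3.97e-10). ACS6 (AT4G11280), an ethylene synthesis enzyme, rose by 2.11 ± 0.12. RAP2-2 (AT3G14230), an ethylene response factor of the hypoxia response and a reported WRKY33 target, had 309.8, 304 and 289 CPM under water, against 109.8, 109.5 and 117 CPM in air (log2 fold change 1.42 ± 0.06, adjusted p = 4.26e-10). The camalexin gene PAD3, listed as CYP71B15, did not pass the test while its regulator WRKY33 rose, with 0.945, 0.227 and 1.14 CPM under water, against 0.768, 1.13 and 0.885 CPM in air (log2 fold change -0.26 ± 0.51, adjusted p = 0.691). ICS1, listed as EDS16, stood at 0.06 ± 0.10 and PHO1 at 0.36 ± 0.18 (adjusted p = 0.623 and 0.107). PHO1 was called without submerged replicate 3 (0.55, adjusted p = 0.00573) or air replicate 2 (0.55, adjusted p = 0.0237). The defence genes PR1 and PDF1.2 had 0 counts in every library, and CYP71A13 had 2 counts in air.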

How the data were processed

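Whole seedlings were sequenced in 6 libraries, 3 submerged and 3 air. Group and replicate number come from the sample titles. The authors deposited whole-number counts per gene, RPKM, TPM and a size-adjusted CPM signal for each library, per the file headers. RPKM and the signal were not used. A second table deposited by the authors holds a log2 fold change, a signed fold change score, p-values and false discovery rates. The submitters' processing notes name TAIR10 as genome build. No aligner, counter, strand setting or test of the authors is given in the sources read, so antisense reads may be included.

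The main test was that of edgeR 4.0.16, run in R 4.3.3 (TMM, filterByExpr with minimum count 10 and total 15, quasi-likelihood test, Benjamini-Hochberg adjustment over 19495 genes). CPM in the text were computed here. Low counts (20 or fewer) were even in 85.8% to 87.4% of cases and were therefore read as pairs counted as 2; the floor for a gene at 0 was 6 counts (3 pairs) summed over a group. The floor covers counting error only, and only in the group at 0. Averaged over all genes tested, variance between replicates was 4.47 to 9.07 times that of counting error when each count is taken as independent. Genes with high counts weigh most in this average, and no value was taken for WRKY genes alone. Where pairs are counted as 2, counting error is larger and the ratio smaller. The fit was also run on simulated counts, with the same dispersion for every gene and few genes changed. That setting is simpler than these data and does not measure the error of the calls made here.

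Members and lists were chosen with earlier results of these data known. Structural groups were written from general knowledge. The annotation gives a group for 49 members and the same one for 47; it places WRKY23 and WRKY45 in group I, and they were kept in IIc. Named in the text are the 12 largest called rises, the called falls, 21 members listed by name, the largest change in each structural group, and members with counts that were not tested; the rest are given as values or ranges, and WRKY21, WRKY39, WRKY65 and others were picked after their values were seen. Of the 3 other lists, the called members with the largest changes are named, and further ones were added after their values were seen.

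Promoter windows came from the RefSeq TAIR10.1 genome and annotation, matched by locus tag for 27443 genes. The files name TAIR10 and hold no coordinates, so those printed are of TAIR10.1. Alternatives were 3 other scalings, 2 other filters, DESeq2 1.42.0, limma 3.58.1 (voom), a replicate block, a root marker covariate, halved counts and leaving out each library.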

Additional observations from a re-analysis of the deposited data

How the results depend on the processing

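Across 16 alternatives, the 50 tested members gave 744 values with the same call, 18 where a call was lost and 15 where one was gained, and no call changed direction. Of the 24 members called higher, 21 were called in every alternative that gave a value; the exceptions were WRKY4, WRKY9 and WRKY65. The number called higher ran from 22 to 26. Of the 17 members called and at least 2-fold higher, 15 stayed at least 2-fold higher in every alternative that gave a value. The number called lower was 2, against 5 with upper quartile scaling and 1 by DESeq2 or with the root marker covariate, all of them in group I, and 1 to 3 when single libraries were left out (1 to 2 in group I and 0 to 1 in group IIc, where limma voom also called 1, WRKY49). Among VQ proteins 4 were called higher with the filter of 5 CPM in 3 libraries, 1 was called lower with upper quartile scaling, and 0 to 1 were called lower with single libraries left out. Among reported targets 5 were called higher with the 5 CPM filter, which left fewer genes. The W-box share was 34.3% with the extended core, against 51.4%. Over all genes listed it was 28.4%, against 44.9%. The extended forms contain the core, so neither share could rise.

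With the replicate number as a block, 25 members were called higher and 2 lower. Correlations between same-numbered libraries, as deviations from the group means, were -0.04, 0.04 and 0.04. Only submerged replicate 2 and air replicate 3 correlated best with the library of their own number in the other group. With 3 libraries per group these values cannot show whether libraries were raised or handled in pairs. WRKY72 was the member whose call changed under the block, and of the 3 other lists ACS2 lost its call (adjusted p = 0.0742). The authors' deposited table calls 26 members higher and 3 lower at a false discovery rate under 0.05; beyond the calls made here it adds WRKY72, WRKY75 and WRKY12. Members under about 1 CPM in both groups rest on few counts per library, and small differences in them were not detectable at this depth.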
